A study of Rattus norvegicus with 9 samples.

Results

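Ptgds encodes lipocalin-type prostaglandin D synthase, and its transcript was followed here across the hypothalamus of 9 male rats. It was chosen by its measured levels, which differed widely between animals, so the pattern over rats is given as a description with no test. The platform annotation gives the single symbol Ptgds to 1 of the 31042 probe sets analysed, which name 14217 genes by a single symbol. The rats were 13 weeks old and were kept in a cycle of 12 hours of light and 12 of dark. In both groups the food held 30% instant noodles by weight and drew 26% of its energy from fat. The 4 rats of the noodle diet group also received the seasonings, and the 5 rats of the control diet group did not. The rats were pair-fed, with a daily intake near 60 g per kg of body weight, for 30 days by one label and 4 weeks by another. The number in each sample's title was taken as the rat's number, and the labels give neither strain nor the borders of the dissection. RNA came from the whole tissue block and each array stands for 1 sample, and the spread on which p-values rest is that of these 9 samples, part of which may be technical.

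The enzyme turns prostaglandin H2 into prostaglandin D2, a lipid mediator known for promoting sleep through its receptor in the coverings of the forebrain. It is also a secreted lipocalin that binds retinoids and other small lipophilic molecules, and as beta-trace it is among the most abundant proteins of the cerebrospinal fluid. In the brain it is made mainly in the leptomeninges, the choroid plexus and oligodendrocytes. Ogn (osteoglycin, a small leucine-rich proteoglycan) and Col1a2 (a chain of type I collagen) are made by meningeal fibroblasts. Mog (myelin oligodendrocyte glycoprotein) is made by myelinating oligodendrocytes.

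The promoter of Ptgds is shown because many transcripts moved together with it. In RefSeq's annotation of assembly GRCr8 the window chr3:28682929-28683228, on the minus strand, runs from 250 bases before the annotated start to 50 bases after it. Capitals mark the matches to the E-box letters CANNTG and to the A- and T-rich letters ATAAATA.
Ptgds promoter: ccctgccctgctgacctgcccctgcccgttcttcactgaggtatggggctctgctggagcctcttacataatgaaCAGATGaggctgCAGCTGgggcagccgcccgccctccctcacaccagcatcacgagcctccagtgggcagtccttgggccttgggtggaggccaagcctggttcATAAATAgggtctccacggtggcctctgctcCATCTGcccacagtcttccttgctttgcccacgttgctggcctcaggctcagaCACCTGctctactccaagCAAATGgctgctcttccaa
Both strands were searched for 5 motifs, and 0 pairs of matches overlapped. CANNTG was found at 5 positions, beginning at bases -175, -163, -40, 14 and 32 counted from the start, and 72.1% of the 33469 promoter windows of this length hold it. ATAAATA was found once, at base -71, and 6.09% of windows hold it. The AP-2 letters GCCNNNGGC were found once, at base -1 (15.1% of windows), and the N-box letters CACNAG at bases -134 and -125 (43.1%). The letters CCAAT (37.5% of windows) were not in this window.

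Ptgds lay at 2 separate levels across the 9 rats, and each level held rats of both diets. On the deposited log2 scale it measured 10.22 in control rat 14, 10.27 in control rat 11, 10.37 in noodle rat 7 and 10.61 in noodle rat 4. It measured 12.15 in noodle rat 13, 12.52 in control rat 5, 12.66 in noodle rat 1, 12.67 in control rat 8 and 12.76 in control rat 2. No rat lay between 10.61 and 12.15, a step of 1.54 log2 units, which is 2.90-fold if the scale is log2 as its range implies. The whole range was 2.53 log2 units, or 5.79-fold. The lower 4 rats spanned 0.39 units and the upper 5 rats 0.61. Each rat was measured once, so the error of a single value is not known. As a guide to it, the 2 probe sets of Col1a2, each centred on its mean, differed by at most 0.14 in any rat, and the 4 of Ogn by at most 0.40. These are differences between probe sets of other genes on the same array, not an error of Ptgds between rats. The step of Ptgds is wider than both, while the largest steps between neighbours within the lower level (0.24) and within the upper level (0.37) lie between them. In bulk tissue, fewer cells of a type and less RNA per cell cannot be told apart.

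**Figure D1:**
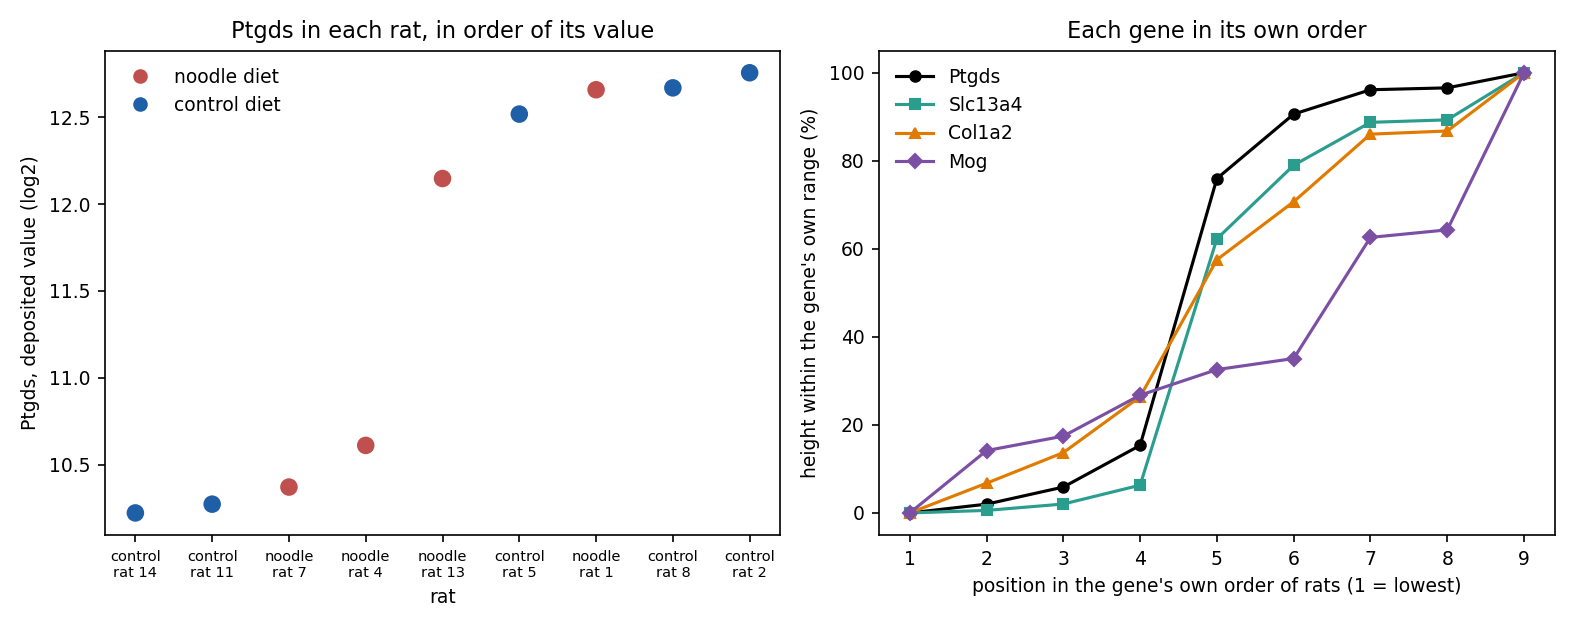
Left, the deposited log2 value of Ptgds in each of the 9 rats, ordered by value and coloured by diet, with 4 rats between 10.22 and 10.61 and 5 between 12.15 and 12.76. Right, Ptgds, Slc13a4, Col1a2 and Mog, each with the rats in its own order and scaled to its own range (0 to 100%), where the step between the fourth and the fifth rat takes up 60.6% of the range for Ptgds, 56.0% for Slc13a4 and 31.1% for Col1a2.

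In the deposited values few probe sets varied as much or in so step-like a way. Ptgds was chosen by its spread over rats, so its place among them is a description. Most deposited values hardly differed between arrays. Of all probe sets 1223 (3.94%) ranged over more than 0.05 log2 units and are called variable here, while 29759 (95.9%) ranged over less than 0.01 and are called compressed. The range of Ptgds ranked 4 among all probe sets, after Tshb, the thyrotropin beta chain (2.75), and 2 probe sets unnamed here (2.77 and 2.62). The widest step took up 60.6% of the range for Ptgds, against a median of 34.2% over the other 1222 variable probe sets, of which 39 had a larger share. The 4 rats lowest in Ptgds were also the 4 lowest in 183 of these 1222 (15.0%), and the 4 highest in 19. In 61 of the 183 the widest step lay at the same place, and 0 of those 61 had a share as large as that of Ptgds, the largest being the 56.0% of Slc13a4.

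Whether the seasonings altered Ptgds was the comparison of the study's own groups, and no difference was found that exceeded the spread between rats. Ptgds measured 11.45 ± 1.13 (SD, n = 4) on the noodle diet and 11.69 ± 1.32 (SD, n = 5) on the control diet. The noodle diet group held 2 rats of the lower and 2 of the upper level, and the control diet group 2 and 3. The difference, noodle diet minus control diet, was -0.24 (SE 0.79, 95% interval -2.07 to 1.59; limma adjusted p = 1, exact 2-sided permutation p = 0.738). The interval includes differences larger than the step between the levels, so with this spread 9 rats did not bound the diet difference below that step. The direction turned without noodle rat 4 (0.038) or 7 (0.12) and without control rat 2 (0.026) or 8 (0.0046). With Ogn and Mog as covariates the difference was -0.31 (SE 0.22, limma adjusted p = 1). With the mean of the meningeal and of the myelin genes as covariates, an alternative added after the data were seen, it was -0.15 (SE 0.19, limma adjusted p = 1). By limma 0 of 31042 probe sets (0%) were called at an adjusted p below 0.05, whereas unadjusted p-values lay below 0.05 for 712 (2.29%).

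The meningeal genes Ogn and Col1a2 rose and fell with Ptgds over the rats. Of the 4 Ogn probe sets, that of widest range measured 5.55 in control rat 14, 5.80 in control rat 11, 5.81 in noodle rat 7 and 5.96 in noodle rat 4. In the other 5 rats Ogn measured 6.76 (noodle 13), 6.90 (control 5), 6.97 (control 2), 7.43 (control 8) and 7.70 (noodle 1). The same 4 rats were thus lowest in Ogn, but the upper rats stood in another order, with noodle rat 1 highest instead of control rat 2. Col1a2 measured 7.59, 7.69, 7.78 and 7.96 in control rats 14 and 11 and noodle rats 7 and 4. It measured 8.40 in noodle rat 13, 8.59 in control rat 5, 8.81 in control rat 2, 8.82 in control rat 8 and 9.005 in noodle rat 1. Neither gene differed by diet beyond its spread (Ogn 0.025, SE 0.53; Col1a2 -0.0092, SE 0.37; limma adjusted p = 1 for both).

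The likeness to Ptgds is given by Pearson's r and Spearman's rho over the 9 rats, as descriptions with no p. Because Ptgds lies at 2 levels, a pooled r mainly restates which rats are high, and neither level holds the 6 rats that a value within it would need. For Ogn r was 0.95 and rho 0.93, and for Col1a2 r was 0.98 and rho 0.93. Without the 2 rats farthest from the median of each gene, r was 0.92 for Ogn and 0.96 for Col1a2. The other 3 Ogn probe sets gave an r of 0.94 to 0.97 and the other Col1a2 probe set 0.96. Among the 1222 other variable probe sets the median r was 0.28, and 109 (8.92%) lay above 0.9.

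**Figure D2:**
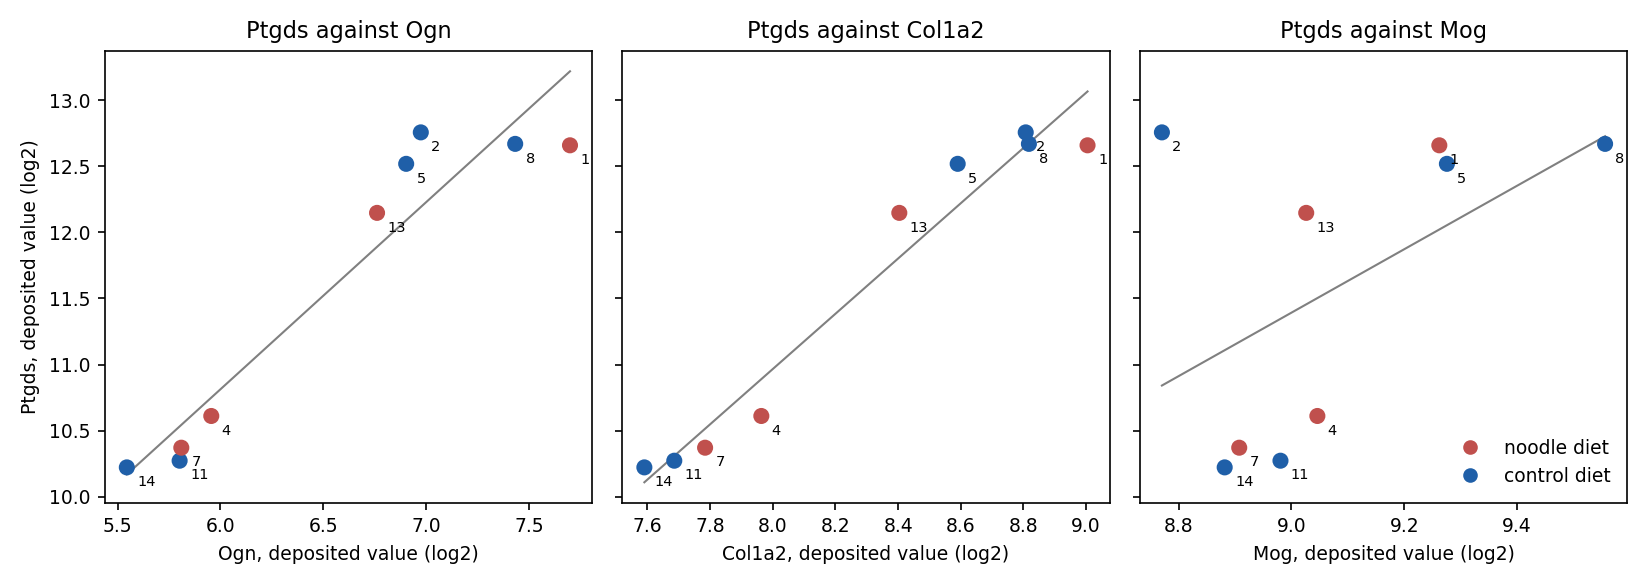
Ptgds (vertical axis) against Ogn, Col1a2 and Mog (horizontal axes), all in deposited log2 values, with 1 point per rat, labelled by its number and coloured by diet, and the least-squares line. Ptgds follows Ogn and Col1a2 with a break between 10.61 and 12.15, while against Mog control rat 2 stands far above the line.

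The 2 meningeal genes shared most of the variance of Ptgds, and the myelin gene added little to them. A least-squares fit on Col1a2 alone gave an R squared of 95.4%, and one on Ogn alone 90.5%. Predicting each rat from the other 8, the R squared was 92.3% for Col1a2 and 83.1% for Ogn. With Mog beside Col1a2 it stayed at 95.4%, Ogn and Mog together gave 92.4%, and all 3 genes gave 95.6%. Predicting left-out rats, the fit on 3 genes did less well (86.1%) than Col1a2 alone. Of 1220 other variable probe sets 26 (2.13%) shared at least as much with Col1a2, and of 1215 others 86 (7.08%) shared at least as much with the 3 genes, for which the median was 64.6%. The means of the 22 variable meningeal genes and the 17 variable myelin genes gave 95.1% together, and the meningeal mean alone 94.3%.

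The fits on Ogn, on Col1a2 and on the 3 genes separated the same lower 4 from the upper 5 rats, but with a smaller step. Between noodle rats 4 and 13, the rats on each side of it, Ptgds differed by 1.54, Col1a2 by 0.44 and Ogn by 0.81. Between noodle rats 13 and 1, both of the upper level, Ptgds differed by 0.51, Col1a2 by 0.60 and Ogn by 0.94. On Col1a2 the fitted gap between the levels was 0.92, or 59.9% of that observed, and on Ogn it was 1.14 (74.3%). With the 3 genes it was 0.83 (54.3%). In the 3-gene fit Ptgds stood above its fitted value by 0.37 in noodle rat 13 and 0.29 in control rat 5. It stood at -0.33 against the fit in noodle rat 4 and at -0.34 in noodle rat 1. In the other 5 rats the residual lay between -0.15 and 0.11. Against straight lines on these genes Ptgds was thus low just below the step, high just above it and low again in noodle rat 1, the rat with the highest Ogn and Col1a2. On linear values, an alternative added after the data were seen, R squared was 93.8% for Col1a2, 79.9% for Ogn and 96.9% for the 3 genes.

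**Figure D3:**
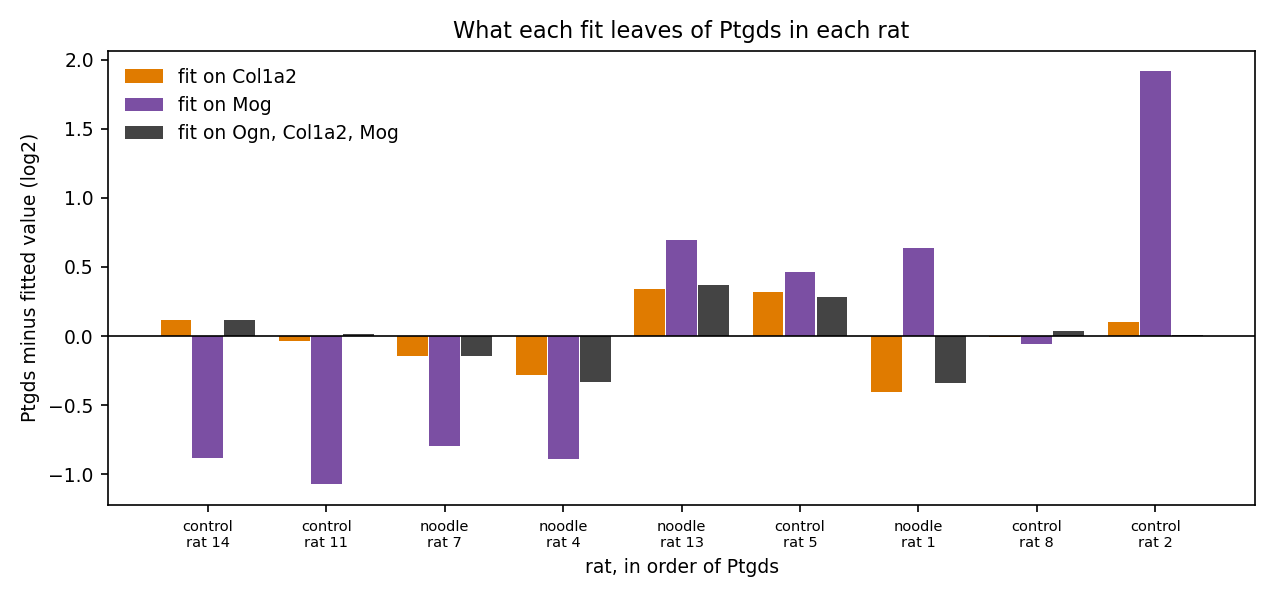
Ptgds minus its fitted value (log2) in each rat, in order of Ptgds, for least-squares fits on Col1a2, on Mog and on Ogn, Col1a2 and Mog together. The residuals on Mog run from -1.07 in control rat 11 to 1.92 in control rat 2, and those of the 3-gene fit from -0.34 to 0.37.

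Mog alone shared 25.2% of the variance of Ptgds, near the median of 22.5% over the other variable probe sets, and left-out rats were predicted worse than by the mean (R squared -28.1%). Mog measured 8.88, 8.98, 8.91 and 9.05 in the rats of the lower level (control 14 and 11, noodle 7 and 4). It measured 9.03 in noodle rat 13, 9.26 in noodle rat 1, 9.28 in control rat 5, 9.56 in control rat 8 and 8.77 in control rat 2. Control rat 2 thus had the highest Ptgds and the lowest Mog. The r of Mog with Ptgds was 0.50 and rho 0.35, and without control rat 2 r was 0.83 and R squared 69.7%. Mog also moved with the meningeal genes, with an r of 0.64 with Ogn and 0.54 with Col1a2, so the part of myelin apart from meninges was not resolved by these 9 rats. By diet Mog differed by -0.032 (SE 0.17, limma adjusted p = 1).

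Other myelin and oligodendrocyte genes stood with Mog. Of 21 listed genes 18 were measured and 17 were variable, with a median r of 0.51, a range of 0.24 to 0.71 and 0 above 0.9. Mobp (a myelin basic protein of oligodendrocytes) came nearest at 0.71, followed by Cnp (a myelin nucleotide phosphodiesterase) at 0.63 and Fa2h (which makes hydroxylated myelin lipids) at 0.60. In 0 of the 17 were the 4 lowest rats those lowest in Ptgds, against 15.0% of the other variable probe sets. The mean of the 17 genes was lowest in control rat 2 (-0.23 against the mean of all rats) and highest in control rat 8 (0.36), both rats of the upper level. Its R squared with Ptgds was 28.6%, and 71.7% without control rat 2. The mean of the meningeal genes gave 94.3% with and without that rat.

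The transcripts most like Ptgds are taken as the 12 genes of highest r among variable probe sets with 1 symbol. Of these, 6 (Slc13a4, Slc6a13, Igf2, Slc22a6, Col1a2 and Aldh1a2) are on the list of meningeal genes, which was chosen with earlier results of these data known. The list also holds the symbol Slc6a20, which no probe set carries, and Slc6a20a, among the 12, was not counted for it. Slc13a4, a sulfate transporter of the arachnoid and choroid plexus, came first (r = 0.99, rho = 0.87). In control rats 14 and 11 and noodle rats 7 and 4 Slc13a4 measured 6.29, 6.25, 6.24 and 6.38. In noodle rat 13 it measured 7.59, in control rat 5 7.95, in control rat 2 8.16, in control rat 8 8.17 and in noodle rat 1 8.40. The levels of Slc13a4 did not overlap between the lower and the upper rats of Ptgds, and its range was 2.16 log2 units. The same 4 rats were lowest in 15.0% of the other variable probe sets. Alone it shared 98.3% of the variance of Ptgds (97.0% for left-out rats), and Mog beside it left this at 98.3%.

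Slc6a13, a GABA and taurine transporter of the meninges, followed (r = 0.99), running from 6.25 in control rat 11 to 6.44 in noodle rat 4 in the lower rats and from 6.97 in noodle rat 13 to 7.46 in noodle rat 1 in the upper ones. Igf2 (insulin-like growth factor 2) and Slc22a6 (the organic anion transporter OAT1) both had an r of 0.98. Igf2 ran from 7.99 to 8.41 and from 9.15 to 9.65, and Slc22a6 from 5.75 to 6.03 and from 6.86 to 7.44. The other 8 were Slc6a20a (a proline transporter), Fam180a, Fkbp9, Tspan8, Col1a2, Bmp7 (a bone morphogenetic protein), Fgl2 and Aldh1a2 (a retinoic acid synthase of the meninges), with an r of 0.98 each. All 12 had the same 4 rats lowest, as had 15.0% of the other variable probe sets, and rho lay between 0.80 and 0.95. The 12 were chosen by r with a gene at 2 levels, so the shared lowest rats mainly restate that choice. The second Slc6a20a probe set gave 0.93 and a second, wider-ranging one of Fgl2 0.81, while 3 further probe sets of Igf2 and 2 of Fgl2 were compressed. The ranking is not fine enough to order these genes. Without noodle rat 1 only 6 of the 12, and without noodle rat 13 only 7, were still among the 12 highest, and by rho 2 were. Of the 12 genes 8 have a promoter window in the RefSeq table used. CANNTG is held by 5 of these 8 (72.1% of all windows) and ATAAATA by 3 (6.09%). CCAAT is held by 3 (37.5%), CACNAG by 3 (43.1%) and GCCNNNGGC by 2 (15.1%). Whether these genes share a promoter feature was not tested.

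**Figure D4:**
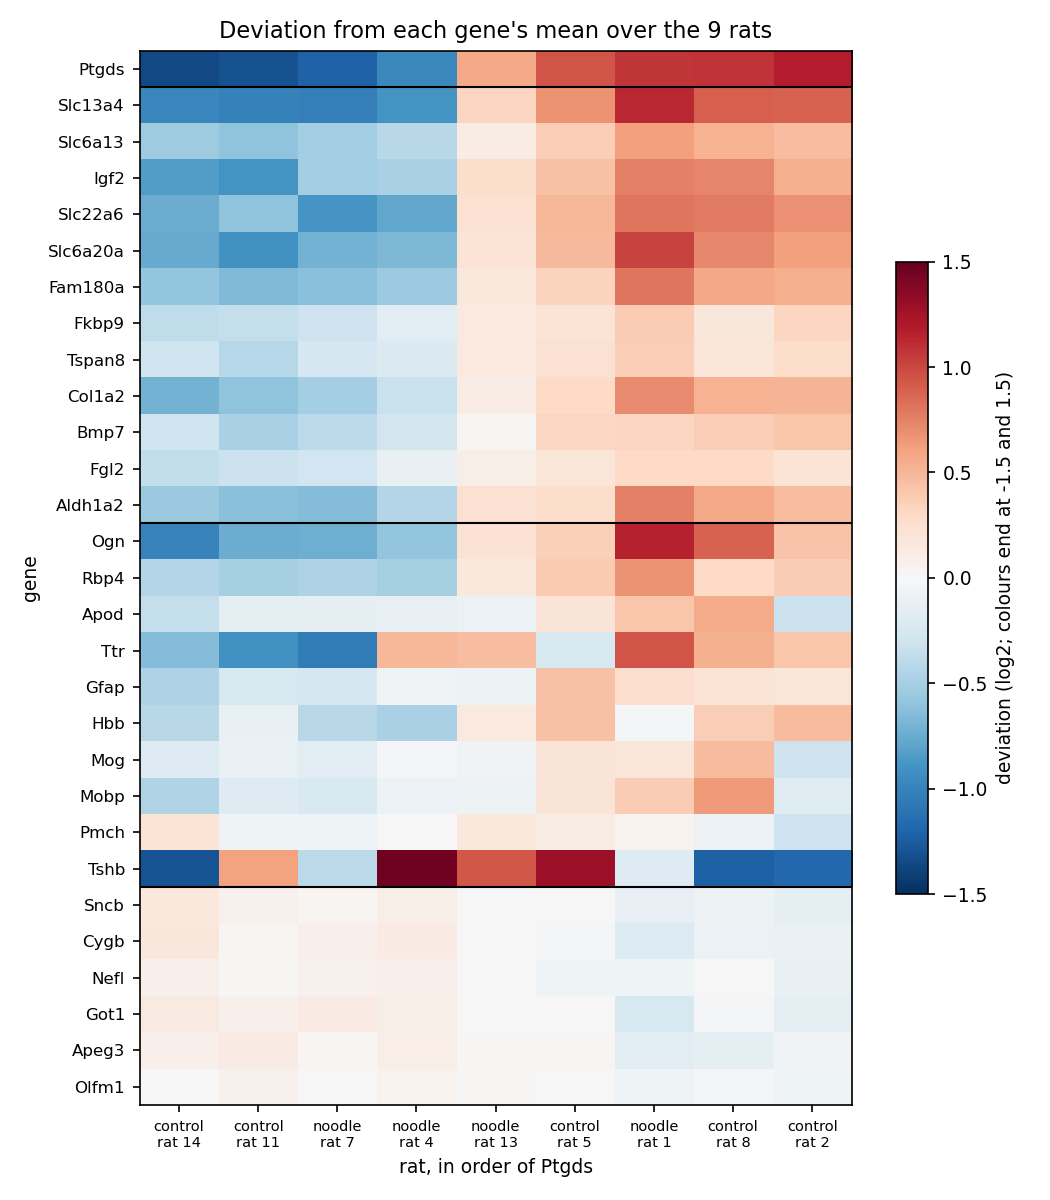
Deviation of each gene from its own mean over the 9 rats, in log2 units, with rats in the order of Ptgds from left to right. Blocks from the top hold Ptgds, the 12 genes of highest r, 10 genes of other lists and the 6 genes of lowest r. The colour changes between the fourth and the fifth rat in Ptgds and the 12 genes, which were chosen by their r with Ptgds. Tshb follows no such order.

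Most of the meningeal list followed Ptgds, but the list was chosen with earlier results of these data known, so this is a description. Of 24 listed genes 23 were measured, as no probe set carries the symbol Slc6a20 and Slc6a20a was not counted for it. Of the 23, 22 were variable, with a median r of 0.95. An r above 0.9 was found in 17 of these 22, against 8.92% of all other variable probe sets. In 18 of the 22 the 4 lowest rats were those lowest in Ptgds, against 15.0% of the other variable probe sets. The mean deviation of the list ran from -0.42 to 0.59 on the noodle diet and from -0.48 to 0.45 on the control diet. Fibronectin (Fn1) had an r of 0.97 and the retinoic acid binding protein gene Crabp2 0.96. The members least like Ptgds were the proteoglycan genes Dcn (decorin, 0.58) and Lum (lumican, 0.71) and the matrix gene Mgp (0.65). By diet 0 of the 23 were called, against 0% of all probe sets, 8 were higher and 15 lower on the noodle diet, and the median difference was -0.030, beside -4.6e-06 over all probe sets and 0.0035 over the variable ones.

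Markers of the choroid plexus, a further known source of Ptgds, were mostly compressed. Of 12 listed genes 10 were measured and 2 were variable, with a median r of 0.13. The prolactin receptor gene Prlr had an r of -0.48 over a range of 0.35. Ttr (transthyretin, the thyroxine carrier of the plexus) measured 6.07, 5.82, 5.68 and 7.22 in control rats 14 and 11 and noodle rats 7 and 4. In the upper level it measured 6.48 in control rat 5, 7.15 in control rat 2, 7.19 in noodle rat 13, 7.26 in control rat 8 and 7.67 in noodle rat 1. Noodle rat 4, of the lower level of Ptgds, had the third highest Ttr, and r was 0.74. Alone Ttr shared 54.2% of the variance of Ptgds (34.8% for left-out rats). With single rats left out its r ran from 0.67 to 0.89. Adding Ttr to Ogn and Mog moved R squared from 92.4% to 92.5%. The part of the choroid plexus apart from the meninges was not tested. Kcnj13, Folr1, Kl, Otx2, Aqp1, Sostdc1, Cldn2 and Kcne2 were compressed, so whether they changed is not known from these values.

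Several other cell types had single genes that moved with Ptgds. Of 10 astrocyte genes 6 were variable with a median r of 0.44. Gjb6 (connexin 30, also made by meningeal cells) reached 0.95 and Gfap, the astrocyte filament protein, 0.87, with a range of 10.45 to 11.35. The blood marker Hbb had an r of 0.87 and ran from 10.57 in noodle rat 4 to 11.54 in control rat 2; its probe set can detect related globin genes, and it was the only variable one of 3 erythroid genes measured. The 4 rats lowest in Hbb were those lowest in Ptgds, as in 15.0% of the other variable probe sets. Of 10 listed genes of ependymal cells and tanycytes 9 were measured and 4 were variable. Rarres2 (the chemokine-like protein chemerin) had an r of 0.97, and the cilia genes Dynlrb2 and Tmem212 -0.34 and -0.33. Of 12 microglia and macrophage genes 5 were variable, with a median of 0.52. C1qa had an r of 0.52. Of 5 oligodendrocyte precursor genes measured 3 were variable, with a median of 0.31, and Pdgfra, which fibroblasts also make, had 0.77. Of 9 pituitary genes measured 2 were variable, Tshb and Cga, for which r was -0.11 and -0.013, and both turned sign without single rats. Of the 10 endothelial and pericyte genes Rgs5 alone was variable, with -0.63. The part of these cell types in the pattern of Ptgds was not tested.

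**Figure D5:**
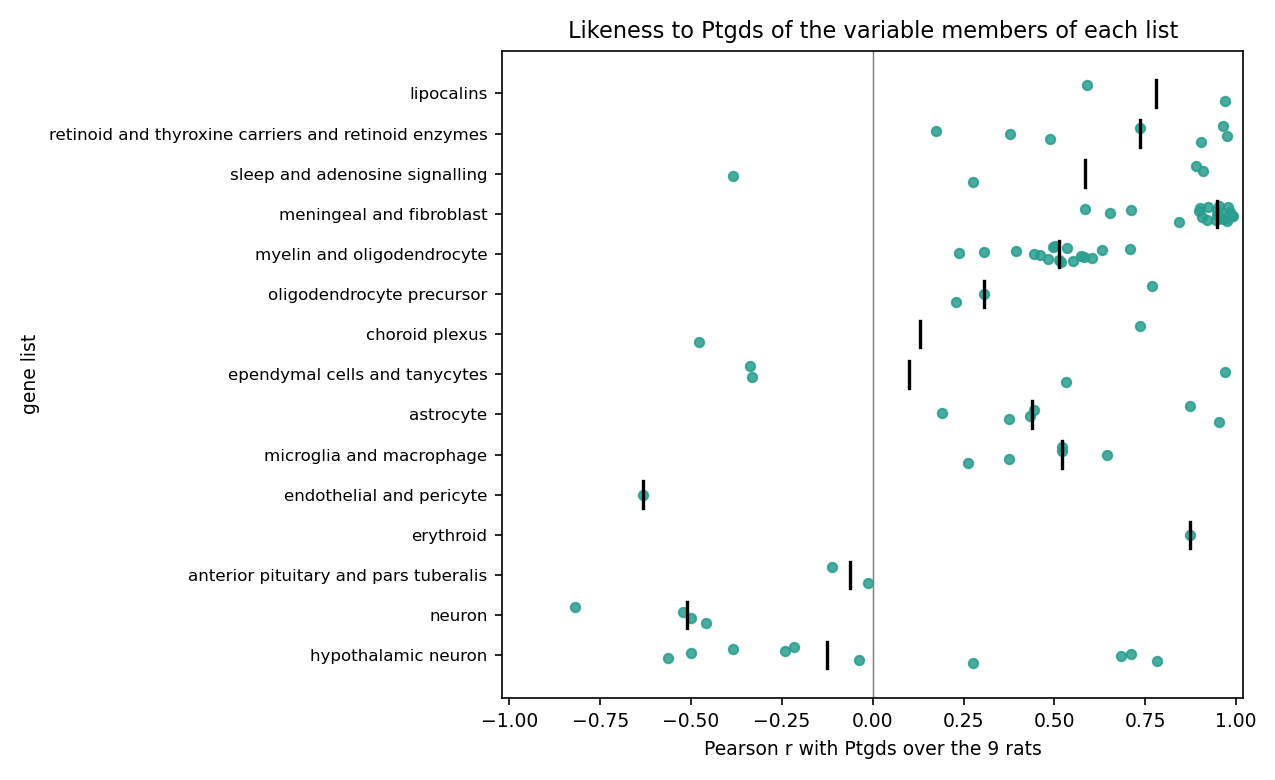
Pearson's r with Ptgds over the 9 rats (horizontal axis) for each variable member of each gene list, with 1 point per gene and a black line at the median of the list. The meningeal list lies near its median of 0.95, the myelin list around 0.51 and the neuron list around -0.51; both prostaglandin lists have no variable member besides Ptgds and are not drawn.

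Genes of hypothalamic neurons differed widely in their likeness to Ptgds. The label of the tissue was checked with Pmch (melanin-concentrating hormone, of the lateral hypothalamus), which lay between 11.85 and 12.37 in all 9 rats. Of 13 hypothalamic genes 10 were variable, with a median r of -0.13. Vip, a peptide of the suprachiasmatic nucleus, had the highest r (0.78). It measured 6.15, 6.33 and 6.56 in control rat 14 and noodle rats 7 and 4, and 7.51 in noodle rat 13. In noodle rat 1, control rats 2, 5 and 8 it lay between 8.11 and 8.30. Control rat 11, of the lower level of Ptgds, had 8.01, and without that rat r was 0.99. Cartpt, an appetite-related peptide, had its 4 lowest values in the same rats as Ptgds, but over a range of 0.36 (r = 0.68). So had 15.0% of the other variable probe sets. Of 10 general neuron genes 4 were variable, and all 4 had a negative r, from -0.82 (the Nefl probe set of widest range) to -0.46 (Map2).

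The transcripts that ran most against Ptgds changed by little. The 6 genes of lowest r were Sncb (beta-synuclein, -0.86), Cygb (cytoglobin, -0.86), Nefl (neurofilament light chain, -0.84 for its other probe set), Got1 (an aspartate aminotransferase, -0.83), Apeg3 (-0.81) and Olfm1 (olfactomedin, -0.79). A second Olfm1 probe set of wider range (0.33) gave -0.63. Sncb ran from 7.95 in control rat 2 to 8.24 in control rat 14, and Cygb from 7.91 in noodle rat 1 to 8.29 in control rat 14. The ranges of the 6 lay between 0.13 and 0.38 log2 units, while that of Ptgds was 2.53.

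The other measured genes of prostaglandin synthesis and action were compressed, so the size of their changes could not be set against that of Ptgds. Over these very small ranges r with Ptgds ran from -0.66 (Prxl2b) to 0.96 (Ptgis) for synthesis. For receptors, transport and breakdown it ran from -0.39 (Ptger3) to 0.95 (Ptgr1). Of the 13 other genes of synthesis, 13 were measured and 0 were variable. They include the cyclooxygenases Ptgs1 and Ptgs2, which make the substrate of Ptgds, the hematopoietic form of the enzyme (Hpgds) and the prostaglandin E synthase gene Ptges, and their ranges reached at most 0.0015 log2 units. Of 15 genes of receptors, transport and breakdown, 13 were measured and 0 were variable, among them the prostaglandin D2 receptor gene Ptgdr2, the transporter gene Slco2a1 and the dehydrogenase gene Hpgd. The receptor genes Ptgdr and Ptgir were not analysed here. In each of the 2 lists 0 genes were called by diet, and 5 were higher and 8 lower on the noodle diet. The largest difference in either list was 0.00028 in size.

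The lipocalin and retinoid genes differed in how closely they followed Ptgds. Of 7 other lipocalin genes 2 were variable. Rbp4, the retinol carrier, measured 7.08, 7.02, 7.05 and 7.03 in control rats 14 and 11 and noodle rats 7 and 4. In the upper rats it ran from 7.68 in noodle rat 13 to 8.19 in noodle rat 1, so that its levels did not overlap either (r = 0.97). The same 4 rats were lowest in 15.0% of the other variable probe sets. Apod (apolipoprotein D, of oligodendrocytes and astrocytes) had an r of 0.59 and was highest in control rat 8 (11.22) and noodle rat 1 (11.08). Lcn2, Apom, Orm1, Ambp and Pmp2 were compressed. Of 12 listed genes of retinoid and thyroxine handling 11 were measured, 7 were variable, and 3 had an r above 0.9: Aldh1a2, Crabp2 and Cyp26b1, the last of which breaks down retinoic acid (0.90). Of all other variable probe sets 8.92% lay above 0.9. Aldh1a2 and Crabp2 are also on the meningeal list and were counted there too. The median of the 7 was 0.74, and the retinol uptake receptor gene Stra6 (0.17), the dehydrogenase gene Aldh1a1 (0.38) and Rdh12 (0.49) lay below it.

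Genes of sleep and adenosine signalling, through which prostaglandin D2 is known to act, were compressed for the most part. Of 12 measured, 4 were variable. Nt5e, the ecto-nucleotidase that makes extracellular adenosine, had an r of 0.91 over a range of 0.12, and Ada, adenosine deaminase, 0.89 over a range of 0.48. The orexin gene Hcrt had -0.38 and Hdc, which makes histamine, 0.27, and the adenosine receptor genes Adora1 and Adora2a were compressed.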

How the data were processed

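The authors deposited 1 table of log2 values for 31099 probe sets on 9 Affymetrix rat arrays, made from biotin-labelled cRNA of 100 ng total RNA per the labels. The log2 scale of the deposited table is inferred from its numeric range. How the arrays were summarized and normalized is not stated in the labels used here. Array medians lay between 6.777 and 6.785 and correlations between arrays between 0.997 and 0.999, so no scaling was added. The 57 manufacturer controls were left out. The platform annotation gave 1 symbol to 20826 probe sets, several to 436 and none here to 9780. Of the first, 20758 were found by gene number in a RefSeq table (GRCr8), and 0 symbols changed. A gene with several probe sets is given by that of widest range, except that the genes of highest and lowest r are given by the probe set that ranked there.

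Diets were compared with limma 3.58.1 in R 4.3.3 (lmFit, eBayes with an intensity trend, 2-sided, Benjamini-Hochberg over 31042 probe sets), a procedure tested on simulated data. There 24 of 50 changes of 0.5 log2 units and 36 of 50 changes of 1 were recovered. For changes of 2 and -2 it was 48 and 49 of 50. The simulated noise was normal, unlike the 2 levels of Ptgds. Correlations and least-squares fits used Python 3.11.15. Named are Ptgds, Ogn, Col1a2, Mog, the 12 genes of highest and 6 of lowest r, the prostaglandin and lipocalin genes, and up to 5 variable members and a defining marker of the other lists. The gene, the lists and the limit of 0.05 for variable probe sets were chosen with earlier results of these data known. Alternatives were other normalizations, variance priors, array weights, filters, ranks, diet means removed, covariates, and leaving out each rat.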

Additional observations from a re-analysis of the deposited data

Results flagged for a closer look

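In 164 groups examined (2 diets for 82 variable named genes and list means), a single rat stood apart from its diet group in 4, and about 8.2 (1 in 20) would do so by chance. Ptgds, Ogn, Col1a2 and Mog were not among them. Apod stood at 11.08 in noodle rat 1, with the other 3 rats of that diet at 10.53 to 10.57. In the same rat Oxt (oxytocin) stood at 8.66, with the others at 10.21 to 10.52. Nefh (neurofilament heavy chain) stood at 9.40 in control rat 2, with the other 4 at 9.55 to 9.57. Vip stood at 6.15 in control rat 14, with the other 4 at 8.01 to 8.30.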

How the results depend on the processing

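No paired analysis was run, although the rats were pair-fed. The titles give the 2 diets no shared rat numbers, and the labels used here name no pairs. Whether neighbouring title numbers mark pair-fed rats is not stated. Under 18 alternative limma fits the count of probe sets called by diet stayed 0, with 7 to 1155 at an unadjusted p under 0.05. With single rats left out the diet difference ran from -0.64 to 0.12 for Ptgds, -0.36 to 0.27 for Ogn, -0.25 to 0.16 for Col1a2 and -0.11 to 0.083 for Mog, and it kept its sign for Ptgds in the other alternatives. The range of Ptgds ran from 2.45 to 2.53. R squared on Ogn, Col1a2 and Mog lay between 94.6% and 97.9% when a rat was dropped and was 90.9% by ranks. Of the 12 genes most like Ptgds, 6 to 11 stayed among the 12 highest with single rats left out, 6 without the 2 rats farthest from each gene's median and 2 by ranks; the cause was not tested. A limit of 0.1 for variable probe sets left the endothelial list without a member. Some weak r values turned sign. Without the 2 farthest rats Prlr stood at 0.042 and Pmch at 0.51, and with diet means removed Cga stood at 0.033. With single rats left out r ran from -0.065 to 0.48 for Hdc, -0.37 to 0.052 for Tshb, -0.39 to 0.15 for Cga and -0.33 to 0.11 for Pmch. A further probe set of Ptgds was not run, as 1 carries the symbol. The files give no signal over background, and 9 arrays limit every value.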
